A study of Homo sapiens with 6 samples.

Results

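Metallothioneins and the main zinc regulators and transporters were followed as 10 genes, of 62703 genes counted, in MDA-MB-231 cells with lowered RNF20. The genes were chosen by symbol: the metallothioneins MT2A, MT1E, MT1F, MT1G, MT1M and MT1X, the zinc-sensing transcription factor MTF1, the zinc exporter SLC30A1 and the zinc importers SLC39A10 and SLC39A14. MDA-MB-231 is an established human breast cancer cell line of the triple-negative type. Bulk RNA-seq libraries came from cells with hairpin RNA against RNF20 (shRNF20, 3 libraries) and from cells with a control hairpin (shControl, 3 libraries). No treatment, added metal or time point is named for either group, and neither the number of hairpins nor whether each line was a pool or a clone is given. RNF20 is a ubiquitin ligase that modifies histone H2B in transcribed genes.

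Metallothioneins are small cysteine-rich proteins that bind zinc, copper and cadmium and buffer the free zinc of the cell. When zinc rises, MTF1 binds metal response elements in the promoters of the metallothionein genes and of SLC30A1 and turns them on. ZnT proteins (SLC30 family) move zinc out of the cytosol, into organelles or out of the cell, and ZIP proteins (SLC39 family) move zinc into the cytosol. Metallothionein symbols (MT1E, MT2A) are not to be confused with those of the mitochondrial genome, which begin with MT and a hyphen.

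Counts assigned to genes were 21988826 to 28265573 per shRNF20 library and 23786533 to 29685306 per shControl library. RNF20 itself stood at 12.5 ± 1.52 CPM in shRNF20 and 58.1 ± 0.34 CPM in shControl (SD, n = 3 each; CPM are gene counts as a share of the library size after scaling). Mitochondrially encoded RNA took 5.74% ± 0.72 of gene counts in shRNF20 and 1.09% ± 0.25 in shControl (SD, n = 3 each). VIM, CD44, EGFR and CAV1, which mark this line, had group means of 272 to 822 CPM. Of these, CD44 (351 CPM in shRNF20, 822 CPM in shControl), VIM (475 CPM in shRNF20, 637 CPM in shControl) and EGFR (381 CPM in shRNF20, 432 CPM in shControl) were called lower and CAV1 did not pass. Of the markers listed as low in this line, ESR1 (1.44 CPM in shRNF20, 0.0997 CPM in shControl) and ERBB2 (139 CPM in shRNF20, 102 CPM in shControl) were called higher, CDH1 (6.99 CPM in shRNF20, 18.2 CPM in shControl) was called lower, and PGR had too few counts to be tested. The 8 leukocyte markers summed to 3.58 to 4.40 CPM in shRNF20 and 1.87 to 3.08 CPM in shControl, mostly CD14, which was called higher (3.08 CPM in shRNF20, 1.41 CPM in shControl), while PTPRC did not pass (0.32 CPM in shRNF20, 0.66 CPM in shControl). The 8 fibroblast and endothelial markers summed to 37.1 to 38.9 CPM in shRNF20 and 19.1 to 22.3 CPM in shControl. Within that sum COL1A1 (30.2 CPM in shRNF20, 13.2 CPM in shControl) and LUM (6.67 CPM in shRNF20, 0.865 CPM in shControl) were called higher and the endothelial marker PECAM1 (0.659 CPM in shRNF20, 5.12 CPM in shControl) was called lower. The part of these markers in the results below was not tested.

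Of the 10 genes, SLC39A10 rose, MT2A, MT1F and MTF1 fell, and 5 did not pass the test. MT1G had no count and was not tested. Calls rest on edgeR's quasi-likelihood test of shRNF20 against shControl, with Benjamini-Hochberg adjustment over the 15797 genes tested and a threshold of 0.05. Across all genes tested 58.4% were called, 28.7% as higher and 29.8% as lower, so 3 falls and 1 rise among 9 tested genes is a share below that background. The groups did not overlap for 5 of the 9 genes, against 66.3% of all genes tested. The median log2 fold change of the 9 genes was -0.10, beside -0.01 over all genes tested. No label says that the libraries were separate cultures, so p-values measure the spread between these libraries, which may be technical. CPM is a share of the RNA sequenced: less transcript per cell in every cell and fewer cells carrying it cannot be told apart.

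**Figure D1:**
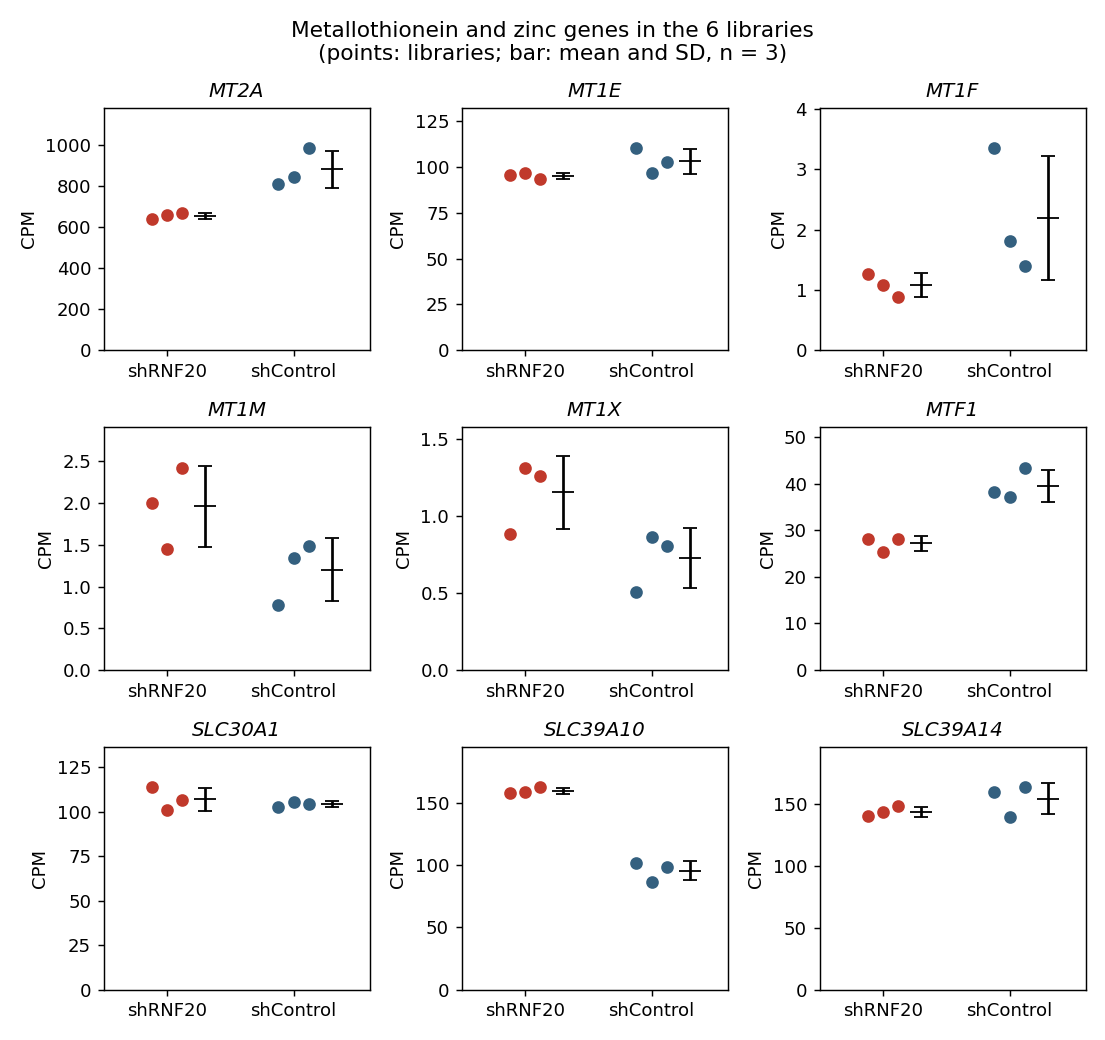
CPM of each gene (vertical axes, from 0) in the 3 shRNF20 libraries (left, red) and the 3 shControl libraries (right, blue), with mean and SD beside the points. The shRNF20 points lie below every shControl point for MT2A, MT1F and MTF1 and above them for SLC39A10 and MT1X. MT1G is not drawn because it had no count.

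MT2A was the most abundant of the metallothioneins measured here and fell. It lies on chromosome 16 with the other metallothionein genes (chr16:56608199-56609497, GRCh38, plus strand, ENSG00000125148.7). Its level was 637, 656 and 667 CPM in the shRNF20 libraries and 811, 845 and 984 CPM in the shControl libraries. The highest shRNF20 library was below the lowest shControl library, and shControl replicate 3 was the highest of the 6. The means were 653 ± 15.3 CPM in shRNF20 and 880 ± 91.5 CPM in shControl (SD, n = 3 each). MT2A was 1.35-fold lower in shRNF20 (log2 fold change -0.43, SE 0.09, 95% interval -0.62 to -0.24, edgeR adjusted p = 0.00265), with no overlap between the groups. Of all genes tested, 29.7% had a log2 fold change below that of MT2A. With the libraries of the shRNF20 group added up and treated as 1 sample, MT2A did not pass (log2 fold change -0.41, edgeR adjusted p = 0.153, with adjusted p from 1.489e-06 to 0.153 over the alternatives tried).

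MT1E, which encodes a metallothionein of the same size, was the next most abundant and did not pass the test. The gene lies at chr16:56625475-56627112 (plus strand, ENSG00000169715.15). Its level was 95.4, 96.7 and 93.4 CPM in the shRNF20 libraries and 110.1, 96.6 and 102 CPM in the shControl libraries. The groups overlapped, since shControl replicate 2 was at the level of the shRNF20 libraries. The log2 fold change was -0.12 (SE 0.07, 95% interval -0.28 to 0.05, edgeR adjusted p = 0.203). Without shControl replicate 2 the log2 fold change was -0.18 and passed (edgeR adjusted p = 0.027; adjusted p from 0.027 to 0.923 over the alternatives tried).

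The metallothionein genes differ little in what they encode. Each of the 6 coding sequences has 186 bases and 61 codons, of which 20 (32.8%) encode cysteine, and those cysteine codons stand at the same positions in all 6. Between pairs of them 88.7% to 95.2% of the bases are identical. The sequences of the 2 abundant genes and of MT1F, the other metallothionein among the 10 that fell, show how close they are (GENCODE 29 transcripts, coding strand, cysteine codons in capitals):
MT2A: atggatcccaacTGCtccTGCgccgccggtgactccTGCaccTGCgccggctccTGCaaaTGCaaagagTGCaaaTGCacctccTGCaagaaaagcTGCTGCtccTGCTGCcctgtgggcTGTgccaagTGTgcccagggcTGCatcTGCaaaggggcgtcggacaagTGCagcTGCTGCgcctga
MT1E: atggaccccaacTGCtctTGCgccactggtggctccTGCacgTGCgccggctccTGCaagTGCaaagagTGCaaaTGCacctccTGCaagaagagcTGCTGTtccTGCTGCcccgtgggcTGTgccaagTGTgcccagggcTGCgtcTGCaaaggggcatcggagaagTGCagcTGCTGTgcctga
MT1F: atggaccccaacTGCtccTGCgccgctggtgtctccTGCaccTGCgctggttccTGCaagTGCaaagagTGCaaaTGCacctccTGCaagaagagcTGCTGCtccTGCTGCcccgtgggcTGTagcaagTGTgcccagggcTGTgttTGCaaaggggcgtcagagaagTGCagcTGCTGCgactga
MT2A and MT1E share 92.5% of these bases, MT2A and MT1F 91.4%, and MT1E and MT1F 91.9%. Reads with more than 1 place in the genome were left out of gene counts, and such likeness can lower the counts. In windows of 50 bases, 3.59% (MT1F) to 20.2% (MT1G) of a metallothionein mRNA was found in the transcript of a gene elsewhere. In windows of 100 bases this was 0 for each of the 6. The read length is not given in the sources used here.

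MT1F was low and fell, and its call was lost without shControl replicate 1 or without any 1 of the shRNF20 libraries. It lies at chr16:56657694-56660698 (plus strand, ENSG00000198417.7). The counts were 33, 24 and 25 in the shRNF20 libraries and 99, 46 and 33 in the shControl libraries, or 1.27, 1.09 and 0.88 CPM in shRNF20 and 3.35, 1.82 and 1.41 CPM in shControl. The groups did not overlap, but shControl replicate 1 stood well above the other controls. MT1F was 2.04-fold lower in shRNF20 (log2 fold change -1.03, SE 0.37, 95% interval -1.87 to -0.19, edgeR adjusted p = 0.0384). Without shControl replicate 1 the log2 fold change was -0.60 and did not pass (edgeR adjusted p = 0.122; adjusted p from 0.00743 to 0.262 over the alternatives tried). The call was also lost without any 1 of the shRNF20 libraries (log2 fold changes -1.17, -1.05 and -0.91 without replicates 1, 2 and 3), with limma-voom (-0.97), in the test against a 1.2-fold change (-1.03) and with the shRNF20 group added up to 1 sample (-1.01).

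MT1M and MT1X had higher means in shRNF20 and did not pass. MT1M (chr16:56632233-56633986, plus strand, ENSG00000205364.4) was at 2.0, 1.45 and 2.42 CPM in the shRNF20 libraries and at 0.78, 1.34 and 1.49 CPM in the shControl libraries, from 23 to 69 counts a library. The groups overlapped for MT1M, and the log2 fold change was 0.72 (SE 0.33, 95% interval -0.03 to 1.46, edgeR adjusted p = 0.0893). MT1X (chr16:56682424-56684196, plus strand, ENSG00000187193.9) was at 0.88, 1.32 and 1.27 CPM in the shRNF20 libraries and at 0.51, 0.87 and 0.81 CPM in the shControl libraries. The MT1X groups did not overlap, by a narrow margin, and the log2 fold change was 0.67 (SE 0.33, 95% interval -0.08 to 1.42, edgeR adjusted p = 0.112). MT1X counts, 15 to 36 a library, are incomplete, since 36.7% of its 450-base mRNA is shared on the same strand with the exons of a noncoding transcript (AC026461.1) and reads there are recorded as ambiguous. The 95% intervals of MT1M and MT1X include both no change and a rise of more than 2-fold.

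MT1G, on the minus strand (chr16:56666731-56668065, ENSG00000125144.14), had 0 counts in all 6 libraries. A count of 0 allows up to 0.105 to 0.136 CPM in a shRNF20 library and up to 0.102 to 0.128 CPM in a shControl library (3 counts, counting error only), of reads that could be assigned to MT1G. The columns that count each strand apart summed to 3, 0 and 2 reads for MT1G in the shRNF20 libraries and to 2, 0 and 1 reads in the shControl libraries. Reads set aside in a column as ambiguous or as mapping more than once are not in its counts, so the bound does not limit the level of MT1G RNA itself.

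Per kilobase of mRNA, MT2A was at 831 CPM in shRNF20 and 1119.6 CPM in shControl, and MT1E at 135 CPM in shRNF20 and 146 CPM in shControl. MT1F, MT1M and MT1X lay between 1.45 and 3.18 CPM per kilobase in either group, and their order did not hold between the groups. The metallothionein signal was therefore nearly all MT2A and MT1E. Summed over the 6 genes it was 737, 756 and 765 CPM in the shRNF20 libraries and 926, 946 and 1089.9 CPM in the shControl libraries. MT2A made up 86.8% ± 0.37 of that sum in shRNF20 and 89.1% ± 1.36 in shControl, and MT1E 12.6% ± 0.39 in shRNF20 and 10.5% ± 1.28 in shControl (SD, n = 3 each). MT2A reads per MT1E read were 6.68, 6.79 and 7.15 in the shRNF20 libraries and 7.36, 8.75 and 9.61 in the shControl libraries. The ratio was lower in each shRNF20 library than in any shControl library; whether MT2A and MT1E differ in their response was not tested.

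**Figure D2:**
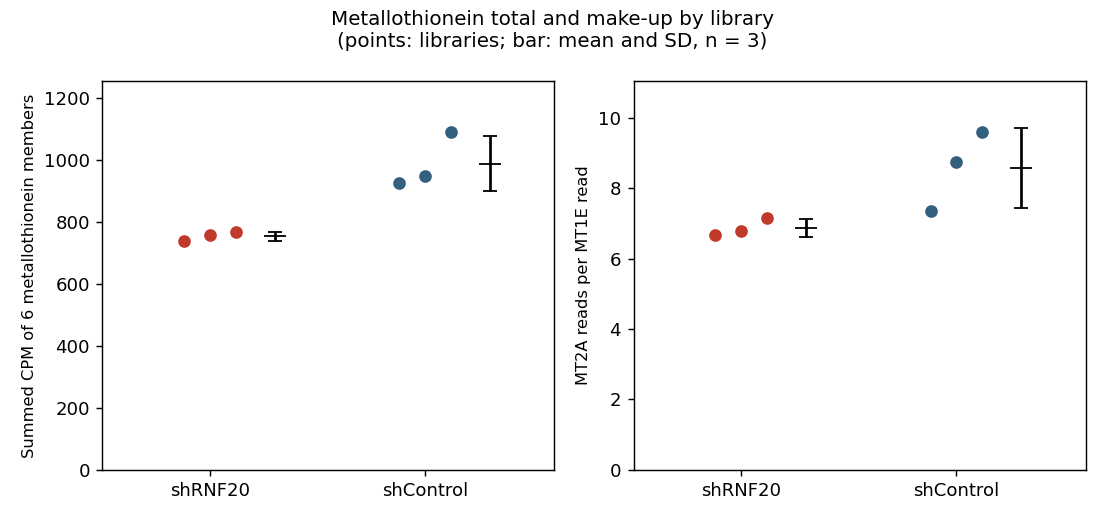
Summed CPM of the 6 metallothionein genes (left) and MT2A reads per MT1E read (right), both axes from 0, for 3 shRNF20 libraries (red) and 3 shControl libraries (blue), with mean and SD. The sums lie between 737 and 765 CPM in shRNF20 and between 926 and 1089.9 CPM in shControl, and the ratios between 6.68 and 7.15 in shRNF20 and between 7.36 and 9.61 in shControl.

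MTF1, the transcription factor that senses zinc, fell. It lies on chromosome 1 (chr1:37809567-37859620, minus strand, ENSG00000188786.10). Its level was 28.0, 25.4 and 28.2 CPM in the shRNF20 libraries and 38.2, 37.1 and 43.5 CPM in the shControl libraries. Every shRNF20 library was below every shControl library, and shControl replicate 3 was again the highest. The means were 27.2 ± 1.57 CPM in shRNF20 and 39.6 ± 3.40 CPM in shControl (SD, n = 3 each). MTF1 was 1.45-fold lower in shRNF20 (log2 fold change -0.54, SE 0.10, 95% interval -0.76 to -0.32, edgeR adjusted p = 0.00164), and 25.3% of all genes tested had a lower log2 fold change. With the shRNF20 group added up in the same way MTF1 did not pass (log2 fold change -0.51, edgeR adjusted p = 0.104; adjusted p from 6.251e-06 to 0.104 over the alternatives tried).

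SLC30A1, which encodes the exporter ZnT1 at the plasma membrane and is a known target of MTF1, did not pass the test. It lies at chr1:211571568-211578742 (minus strand, ENSG00000170385.10). Its level was 114, 101 and 106 CPM in the shRNF20 libraries and 103, 106 and 105 CPM in the shControl libraries. The shControl values lay inside the range of the shRNF20 values. The log2 fold change was 0.04 (SE 0.07, 95% interval -0.12 to 0.20, edgeR adjusted p = 0.661), an interval that excludes a rise or fall as large as that of MTF1 or of SLC39A10.

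The promoters of these genes hold unequal numbers of the core of the metal response element. The core was searched as TGCACNC and as TGCGCNC, on both strands, and overlapping matches were counted separately. The bases searched run from 250 before to 50 after a RefSeq start. This start can differ from the end of the GENCODE gene span given above, and the MT2A bases shown lie inside the span of MT2A. RefSeq promoters (GRCh38.p14) of 5 of the 10 genes are reported here. MT2A had 8 matches, MT1X 4, SLC30A1 2 and MTF1 0, and of a pair of starts of SLC39A10 one had 0 and the other 1. Among all 35116 promoters of this length 29.6% held at least 1 match, 0.601% at least 4 and 0.074% at least 6. The 250 bases before the start are shown for a metallothionein that fell, for one that did not pass and for the exporter, with matches in capitals, 5′ to 3′ in the direction of the gene. They are chr16:56608334-56608583 (plus strand) for MT2A, chr16:56682220-56682469 (plus strand) for MT1X and chr1:211579162-211579411 (minus strand) for SLC30A1:
MT2A: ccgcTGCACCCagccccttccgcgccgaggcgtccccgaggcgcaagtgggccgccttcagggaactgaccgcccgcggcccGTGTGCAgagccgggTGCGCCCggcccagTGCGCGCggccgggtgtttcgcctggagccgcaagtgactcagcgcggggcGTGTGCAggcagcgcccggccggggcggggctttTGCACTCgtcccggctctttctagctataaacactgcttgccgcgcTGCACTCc
MT1X: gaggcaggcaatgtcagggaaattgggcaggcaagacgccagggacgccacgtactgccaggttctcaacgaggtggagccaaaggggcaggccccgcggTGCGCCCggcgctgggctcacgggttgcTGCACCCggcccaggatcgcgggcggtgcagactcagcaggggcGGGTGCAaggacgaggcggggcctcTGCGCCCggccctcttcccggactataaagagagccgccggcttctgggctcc
SLC30A1: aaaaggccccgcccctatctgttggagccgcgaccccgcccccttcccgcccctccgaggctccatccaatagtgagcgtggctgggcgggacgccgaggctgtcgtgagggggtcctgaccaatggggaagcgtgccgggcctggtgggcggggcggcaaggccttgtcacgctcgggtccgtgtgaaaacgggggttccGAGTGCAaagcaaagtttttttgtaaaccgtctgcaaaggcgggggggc
Of the matches, 7 of MT2A, 4 of MT1X and 1 of SLC30A1 are in the bases shown. MT2A, with the most matches, fell, while MT1X and SLC30A1 did not pass the test. A match is a run of letters and not evidence of MTF1 binding in these cells.

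SLC39A10, which encodes the plasma membrane importer ZIP10, rose. It lies on chromosome 2 (chr2:195575977-195737702, plus strand, ENSG00000196950.14). Its level was 158, 158 and 162 CPM in the shRNF20 libraries and 102, 86.6 and 98.0 CPM in the shControl libraries. All 3 shRNF20 libraries were above the highest shControl library, and they differed little among themselves. The means were 159.6 ± 2.40 CPM in shRNF20 and 95.5 ± 7.94 CPM in shControl (SD, n = 3 each). SLC39A10 was 1.67-fold higher in shRNF20 (log2 fold change 0.74, SE 0.08, 95% interval 0.56 to 0.92, edgeR adjusted p = 1.03e-04), and 15.9% of all genes tested had a higher log2 fold change. It passed in 17 of the 18 alternatives, the exception being the demand for at least a 2-fold change, and its log2 fold change ranged from 0.65 to 0.78 over them.

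SLC39A14, which encodes the importer ZIP14 that carries iron and manganese as well as zinc, did not pass. It lies on chromosome 8 (chr8:22367249-22434129, plus strand, ENSG00000104635.15). Its level was 140.0, 143 and 148 CPM in the shRNF20 libraries and 159, 139.6 and 163 CPM in the shControl libraries. The groups overlapped through shControl replicate 2, the lowest of the 6. The log2 fold change was -0.10 (SE 0.08, 95% interval -0.28 to 0.08, edgeR adjusted p = 0.294). Without shControl replicate 2 it was -0.19 and passed (edgeR adjusted p = 0.0217; adjusted p from 0.0217 to 0.927 over the alternatives tried). With MT1E, this brings the members called lower to 5 without that library, against 3 with all libraries. Over all genes tested, 5022 of 16329 were called lower without that library, against 4704 of 15797 with all libraries. Per kilobase of mRNA the transporters had similar levels, with SLC39A14 at 30.9 CPM in shRNF20 and 33.2 CPM in shControl, SLC39A10 at 29.4 CPM in shRNF20 and 17.6 CPM in shControl, and SLC30A1 at 19.6 CPM in shRNF20 and 19.0 CPM in shControl. MTF1 was lower, at 3.42 CPM per kilobase in shRNF20 and 4.97 CPM in shControl.

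The wider families gave no single direction. Among metallothionein genes outside the 10, MT1A was the 1 of 6 tested and fell, to 1.85, 1.95 and 1.83 CPM in the shRNF20 libraries against 4.03, 4.93 and 4.64 CPM in the shControl libraries (log2 fold change -1.27, SE 0.19, edgeR adjusted p = 6.49e-04). Of the others, MT1B, MT1H and MT1HL1 had no count and MT3 and MT4 had 5 and 2 counts over the 6 libraries, and none of the 9 metallothionein pseudogenes listed had enough counts to be tested. Among the 5 metallothionein members tested edgeR called 0 as higher (0 at an unadjusted p under 0.05). DESeq2 called 0 as well (0 unadjusted), and so did limma-voom (1 unadjusted). With edgeR 2 of the 5 were called lower. Over all genes tested 28.7% were called higher and 29.8% lower, and 5 genes are too few to set these counts apart from that background.

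Of 9 other ZnT exporters 6 were tested. SLC30A6 and SLC30A7, which load zinc into the Golgi and secretory pathway, rose. SLC30A6 was at 60.7 ± 2.10 CPM in shRNF20 and 45.4 ± 6.44 CPM in shControl (SD, n = 3 each, log2 fold change 0.42, SE 0.11, edgeR adjusted p = 0.00913). SLC30A7 was at 90.6 ± 2.67 CPM in shRNF20 and 78.1 ± 1.39 CPM in shControl (SD, n = 3 each, log2 fold change 0.21, SE 0.07, edgeR adjusted p = 0.0206). SLC30A9 fell to 47.8 ± 0.67 CPM in shRNF20, against 81.9 ± 4.14 CPM in shControl (SD, n = 3 each, log2 fold change -0.78, SE 0.07, edgeR adjusted p = 5.66e-05); its product exports zinc from mitochondria. The median of the 6 log2 fold changes was 0.32, beside -0.01 over all genes tested. Of 12 other ZIP importers 10 were tested. SLC39A6, the closest relative of SLC39A10, rose to 136 ± 5.89 CPM in shRNF20, against 94.3 ± 9.78 CPM in shControl (SD, n = 3 each, log2 fold change 0.53, SE 0.09, edgeR adjusted p = 0.00106). SLC39A3 (0.49), SLC39A13 (0.35) and SLC39A1 (1.73) rose too. The value of SLC39A1 rests on a low level, 1.32 CPM in shRNF20 and 0.39 CPM in shControl, with 130 counts over the 6 libraries. The counts of SLC39A1 and SLC39A3 may be incomplete, since in GENCODE 29 71.8% and 29% of their mRNA is shared with exons of overlapping genes. SLC39A11 fell most, to 7.02 ± 1.52 CPM in shRNF20, against 25.9 ± 6.46 CPM in shControl (SD, n = 3 each, log2 fold change -1.89, SE 0.22, edgeR adjusted p = 1.60e-04). SLC39A4 fell by 0.37 on the log2 scale (SE 0.12, edgeR adjusted p = 0.0298). The median of the 10 log2 fold changes was 0.20. SLC39A7 (-0.23), SLC39A8 (-0.14) and SLC39A9 (0.05), abundant at 96.3 to 282 CPM, did not pass.

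**Figure D3:**
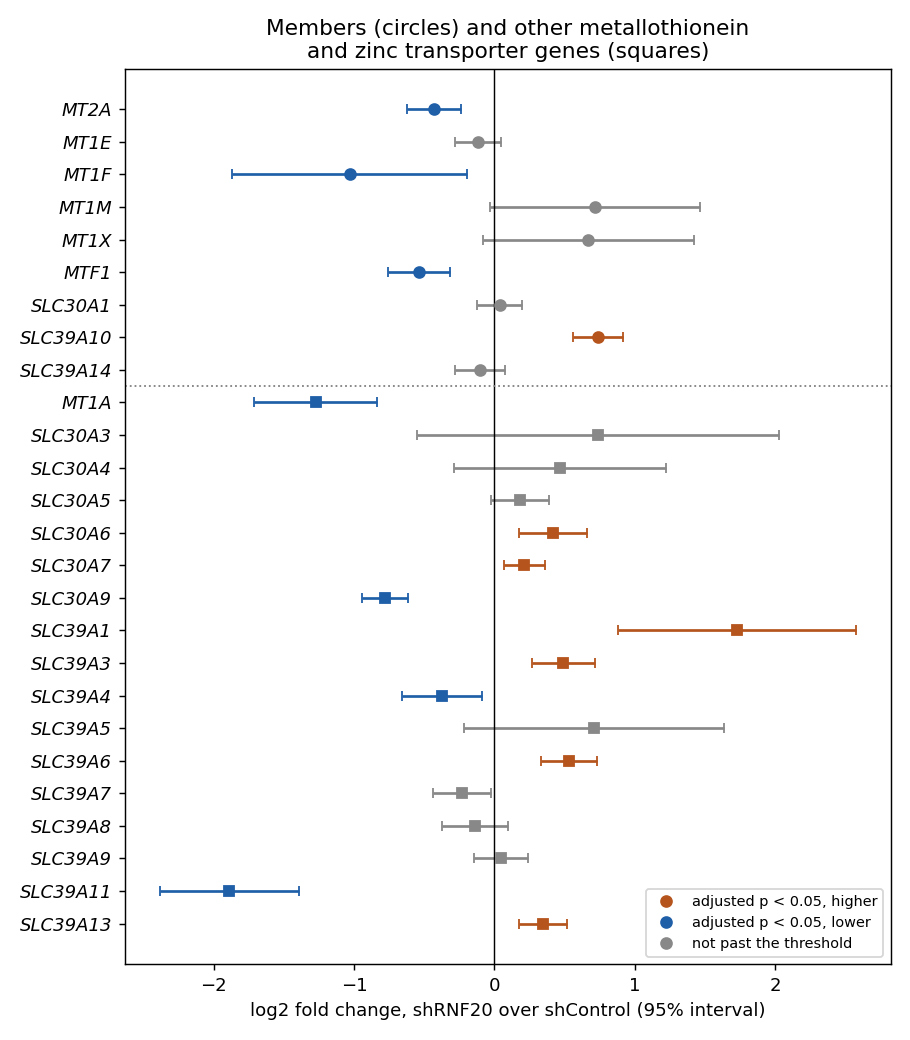
Log2 fold change of shRNF20 over shControl (horizontal axis, with 95% interval) for the 9 members tested (circles, above the dotted line) and the other metallothionein and zinc transporter genes tested (squares). Orange marks genes called higher, blue genes called lower and grey genes that did not pass; SLC39A10 lies at 0.74, MT2A at -0.43, and SLC30A1 at 0.04.

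The genes next to the metallothionein cluster went both ways. Within 500 kb of it on either side 13 genes other than the members were tested, of which 4 rose and 3 fell, with a median log2 fold change of 0.04. Across all genes tested 28.7% were called higher and 29.8% lower, with a median of -0.01, so these counts are near the background. On the side of MT2A, OGFOD1, an oxygenase that modifies a ribosomal protein, rose to 56.4 ± 2.99 CPM in shRNF20, against 34.8 ± 2.09 CPM in shControl (SD, n = 3 each, log2 fold change 0.70, SE 0.08, edgeR adjusted p = 2.04e-04). NUDT21, a subunit of the complex that sets polyadenylation sites, rose too (0.47). MT1A, inside the cluster, fell, as did NLRC5 (-0.63) and PSME3IP1 (-0.75) on the side of MT1X, where an unnamed gene (ENSG00000285979) rose (1.59). NUP93, the first tested gene beyond MT1X on that side, was at 90.2 ± 1.09 CPM in shRNF20 and 87.9 ± 2.33 CPM in shControl and did not pass (SD, n = 3 each, log2 fold change 0.04, SE 0.06, edgeR adjusted p = 0.638).

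**Figure D4:**
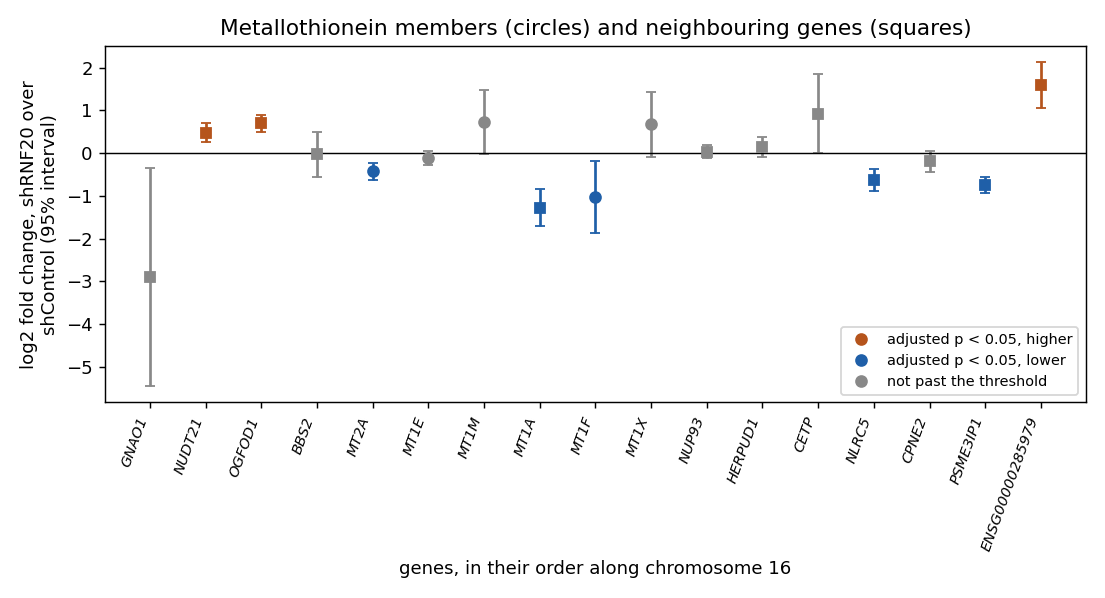
Log2 fold change of shRNF20 over shControl (vertical axis, with 95% interval) for genes in and around the metallothionein cluster, in their order along chromosome 16 but not to scale in distance. Circles are metallothionein members and squares their neighbours; NUDT21 (0.47) and OGFOD1 (0.70) lie above 0 and MT1A (-1.27) below it.

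Genes of other metals and of metal stress served as a comparison for the zinc genes. The counts of each list below stand beside 28.7% called higher and 29.8% called lower over all genes tested. The median log2 fold change over all genes tested was -0.01. Of 11 genes of copper handling, which metallothioneins also bind, SLC31A1 (0.47) and COX17 (0.29) rose and ATP7B (-1.46), SCO1 (-0.67), CCS (-0.61) and ATOX1 (-0.35) fell, with a median log2 fold change of -0.03. Of 10 genes of iron handling 6 rose and 2 fell, with a median of 0.40. ACO1 fell (-1.01) and IREB2 rose (0.45), the pair that encodes the iron regulatory proteins, and STEAP3, a reductase of iron, fell (-0.35). Of 12 genes that metals and oxidants induce, with a median of -0.01, TXNRD1 (1.26), SRXN1 (0.89), GCLC (0.46) and HMOX1 (0.41) rose. Of the heat shock genes among them, HSPA1A (-1.42), HSPA1B (-0.68), HSPB1 (-0.66) and HSPA8 (-0.51) fell, while DNAJB1 (-0.19), HSPH1 (-0.03) and BAG3 (0.005) did not pass. SRXN1 counts are uncertain because in GENCODE 29 85% of its mRNA is shared with an overlapping gene, and HSPA1A and HSPA1B are near copies of each other. Glucocorticoids also induce metallothionein genes. Of 9 glucocorticoid targets tested KLF9 (-2.70), FKBP5 (-1.49), ERRFI1 (-1.09) and SGK1 (-0.75) fell and 0 rose (0 at an unadjusted p under 0.05 with edgeR, DESeq2 and limma-voom), with a median of -0.36. The receptor gene NR3C1, counted in that list, had a log2 fold change of -0.06 and did not pass (SE 0.09, edgeR adjusted p = 0.553).

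The genes whose pattern over the 6 libraries was most like that of MT2A were EXD2, ZBTB8OS, AGFG2, NT5DC3 and CDK11B. They were found among 9931 genes as those with the smallest root mean square difference from MT2A in log2-CPM, each gene centred on its own mean, at 0.0145 to 0.0329 for these 5. EXD2 was at 21.8, 22.4 and 22.5 CPM in the shRNF20 libraries and 27.7, 28.7 and 32.7 CPM in the shControl libraries. Like MT2A, it was highest in shControl replicate 3, which follows from the way it was chosen. CDK11B has a near copy, so its counts are uncertain. The 5 genes lie on chromosomes 14, 1, 7, 12 and 1, away from the cluster.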

How the data were processed

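Per the labels' protocols, RNA of MDA-MB-231 cells was purified on columns and a sequencing company prepared the libraries. Reads were checked with FastQC 0.12.1 and aligned to hg38 with STAR 2.7.11a, per the submitters' processing notes; no annotation release is named there. Raw read counts per gene, without regard to strand and for either strand, were deposited by the authors. The first strand column held 50.1% to 50.2% of stranded counts, so the unstranded counts were used. Lines that name no gene held 20.9% to 24.1% of all reads recorded and stayed out; they include ambiguous reads (exons of more than 1 gene), 10.7% to 11.2% of all reads.

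Symbols were matched by identifier for 62686 of 62703 genes. Positions and transcripts came from GENCODE 29 (GRCh38), which held 58264 of the 62703 genes, and promoters from RefSeq. The analysis used edgeR 4.0.16 in R 4.3.3, with filterByExpr (minimum count 10), TMM scaling and the robust quasi-likelihood F-test. SE is the log2 fold change over the root of F. Levels per kilobase divide CPM by the length of 1 principal coding transcript. Self-tests used simulated counts. MT1F, MT1M and MT1X rest on few counts; counting error and the spread between libraries were not separated.

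The members and lists were chosen with earlier results of these data known. Named are the 10 members, in each list the 2 smallest p and every called gene where 5 or fewer moved 1 way, and the 5 genes most like the most abundant member (mean log2-CPM of at least 3). SLC39A7, SLC39A8, SLC39A9, NUP93, NR3C1, DNAJB1, HSPH1 and BAG3 were named after their values were seen. Some genes of these lists are counted but not reported here by name. Other tools tried were DESeq2 1.42.0 and limma-voom (limma 3.58.1). Other settings were scaling by RLE or the upper quartile, all genes unfiltered, only genes with a CPM of 1 or more in 3 libraries, the replicate block, strand columns added, mitochondrial genes removed, calls of at least 2-fold, glmTreat at 1.2-fold, the shRNF20 group added up to 1 sample, and each library left out.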

Additional observations from a re-analysis of the deposited data

How the results depend on the processing

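Of 161 values of single members under 18 alternatives, 145 kept their direction and their side of the threshold, 12 lost the call, 2 gained it and 2 changed sign. Both changes of sign were of SLC30A1, which was called in none of them (main value 0.04). Its log2 fold change was -0.0024 without a filter on low counts and -0.0194 to 0.0657 with 1 library left out. Demanding at least 2-fold left 1655 genes higher and 1856 lower, with 0 members higher (1 at an unadjusted p under 0.05) and 1 lower, and 1 other zinc transporter higher and 1 lower. With the shRNF20 libraries summed to 1 sample edgeR called 1753 genes higher and 1619 lower, 0 members lower (1 unadjusted) and 0 other zinc transporters higher (4 unadjusted). In the test against 1.2-fold 3 other zinc transporters were higher, against 6 in the main result. The stricter filter moved the metallothionein median from -0.12 to -0.26 because MT1X was no longer tested.

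With 1 library left out, 3617 to 4755 genes were higher and 3906 to 5022 lower, 1 member was higher each time and 2 to 5 were lower, 5 to 7 other zinc transporters were higher and 2 to 4 lower, and the metallothionein median was -0.18 to -0.09. The other causes were not tested. Deviations from the group mean had correlations of -0.02, 0.04 and 0.03 between same-numbered libraries. The best-matching control had the same number for shRNF20 replicates 2 and 3 and was replicate 3 for shRNF20 replicate 1. With 3 libraries a group this cannot decide whether the numbers mark pairs. With the replicate block 1 member was higher and 3 lower, as without it. In that fit 4418 genes were higher and 4518 lower, against 4528 and 4704. MT1F, MT1M and MT1X rest on 15 to 99 counts a library, and how much of their error is depth and how much spread between libraries was not tested.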
